A study of Homo sapiens with 6 samples.

Results

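The genes described here are 9 feedback inhibitors of mitogen-activated protein kinase (MAPK) signalling: the phosphatase genes DUSP1, DUSP2, DUSP4, DUSP5, DUSP6 and DUSP10 and the adaptor genes SPRY2, SPRED1 and SPRED2. They were chosen by name, as probe sets of the deposited value table whose annotation lists only that gene symbol, and each had 1 such probe set. That choice, and the choice of the gene lists set beside them, was made with earlier results of these data known. All 9 were among the 18417 genes measured. The cells were RPMI 8226, an established human cell line of multiple myeloma, a cancer of plasma cells, kept in medium with serum. One group of 3 samples received 0 Gy and the other group of 3 received 6 Gy of carbon ions, heavy charged particles whose ionisation is concentrated along each track; no other agent or genetic change is named for either group. Total RNA was taken 1 day later, labelled with biotin and hybridised to 1-colour arrays, 1 array per sample, so early and transient responses lie outside what was measured. Every sample comes from the same cell line, and the labels do not say whether the 3 samples of a dose were separate cultures, so p-values measure sample-to-sample spread alone, and that spread may be technical.

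MAPK cascades carry growth factor and stress signals from the cell surface to the nucleus through the kinases ERK, p38 and JNK. ERK raises transcription of its own inhibitors: dual-specificity phosphatases, which remove the activating phosphates from MAPKs, and Sprouty and Spred proteins, which act upstream on RAS and RAF. Mutations that activate RAS are common in myeloma, and transcripts of these inhibitors are often read as a trace of how much ERK signal a cell carries.

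The label of the cells was checked against marker genes. Plasma cell markers were bright, with JCHAIN at 12.99 on the log2 scale in unirradiated cells, and the mean level of the 10 markers ran from 10.48 to 10.50 on the unirradiated arrays and from 10.45 to 10.51 on the irradiated arrays. SLAMF7, a plasma cell surface receptor gene, was the dim exception at 4.63. Of the 10, SLAMF7 rose by 0.55, CD38 fell by 0.42 and XBP1 fell by 0.23. Mean levels of markers of other cell types were lower on every array: 5.16 to 5.63 for 5 T cell markers, 4.15 to 4.48 for 5 monocyte markers, 4.65 to 4.88 for 5 fibroblast markers and 4.62 to 5.01 for 2 erythroid markers. The T cell, monocyte and fibroblast levels lay higher on each irradiated array than on any unirradiated array (5.37 to 5.63 against 5.16 to 5.35, 4.43 to 4.48 against 4.15 to 4.37, and 4.73 to 4.88 against 4.65 to 4.68), and 1 of the 5 T cell markers and 2 of the 5 fibroblast markers rose. The table has no zero or detection call, and the part of these shifts in the results was not tested. Of 5 epithelial markers, EPCAM (10.49 in unirradiated cells) and KRT18 (9.63) were bright; EPCAM fell by 0.39 (limma adjusted p 0.0154), and the list's mean level overlapped between the groups (7.03 to 7.12 and 7.03 to 7.15). Array medians lay between 5.64 and 5.72.

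The feedback genes did not move as a block. DUSP4 rose to 1.38-fold and DUSP1 fell by 0.42 on the log2 scale, which is 1.34-fold lower, while the other 7 did not pass the test. The test was limma on all genes with Benjamini-Hochberg adjustment, and a gene is said to rise or fall only at an adjusted p under 0.05. Of all 18417 genes, 14.5% passed; 6.35% rose and 8.18% fell. The feedback genes, with 1 of 9 in each direction, stand near these shares, so the counts are no result about the set. Their median log2 difference (6 Gy minus 0 Gy) was 0.00693, beside 0.0389 over all genes, with 5 positive and 4 negative values. The values of the groups did not overlap for 5 of the 9, 3 higher and 2 lower after irradiation, beside 34.7% of all genes (19.0% higher and 15.7% lower), and 6 of the 9 had an unadjusted p under 0.05, beside 29.8%. In such bulk RNA, fewer cells that express a gene and less RNA per cell cannot be told apart. The count of all called genes fell to 1584 without unirradiated array 1 and to 1471 without unirradiated array 2, from 2676.

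**Figure D1:**
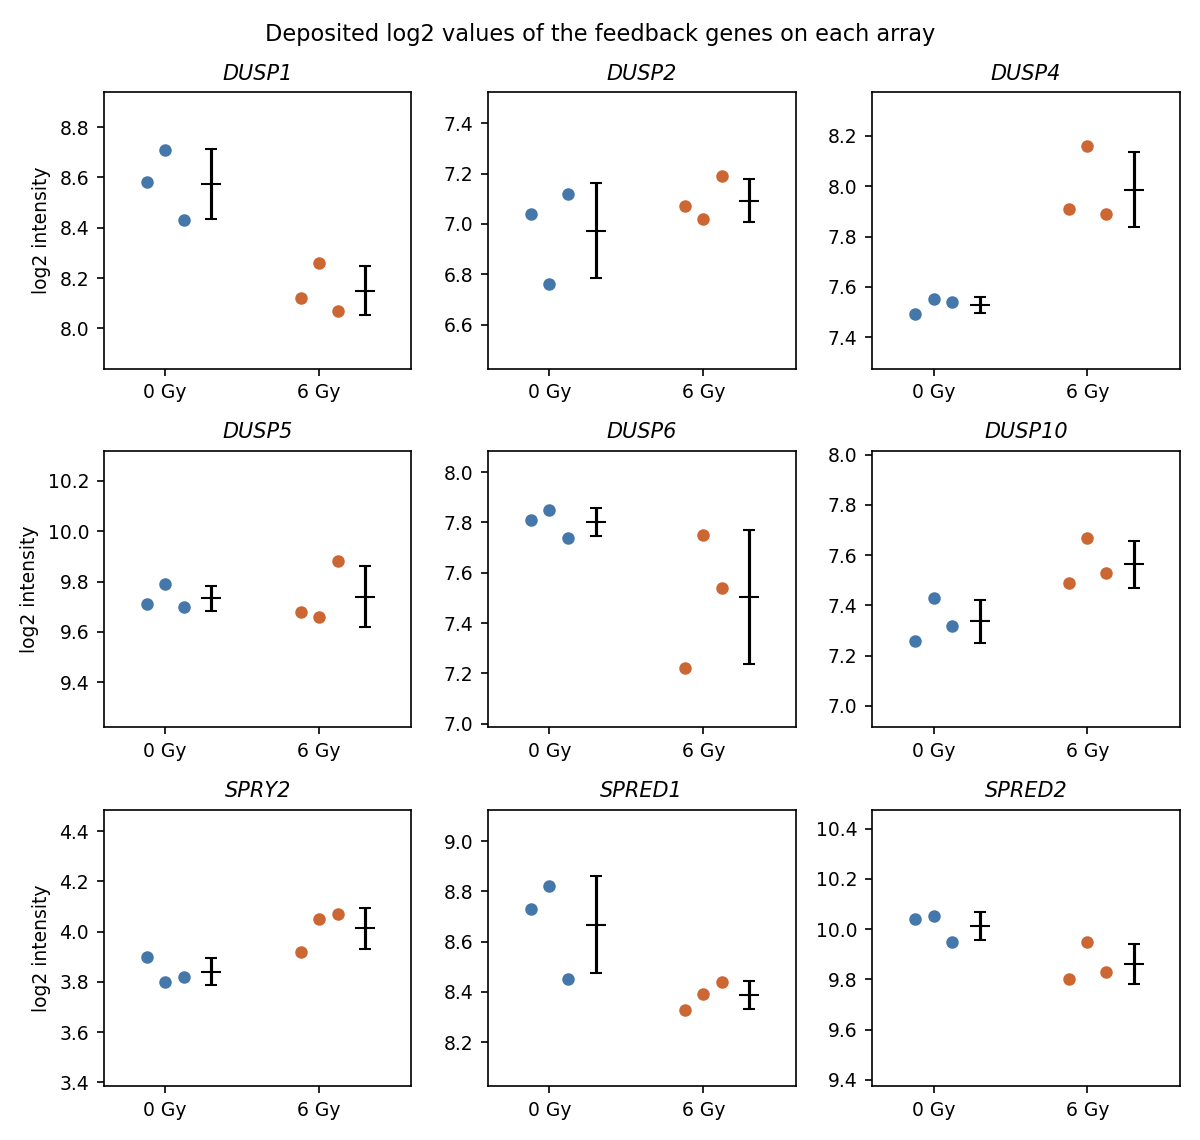
Deposited log2 intensity of the 9 feedback genes on each of the 6 arrays, 3 at 0 Gy (blue) and 3 at 6 Gy of carbon ions (orange), with the mean and SD of each group beside the points. Every panel spans the same range of log2 units; DUSP1 and DUSP4 show the clearest gaps, in opposite directions, and DUSP2 and DUSP5 overlap.

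DUSP1 encodes a nuclear phosphatase that acts on p38, JNK and ERK and is itself induced as an early gene by growth factors and stress. Its values (probe set 8115831) were 8.58, 8.71 and 8.43 on the unirradiated arrays and 8.12, 8.26 and 8.07 on the irradiated arrays. All 3 irradiated arrays were below all 3 unirradiated arrays. The mean went from 8.57 ± 0.14 to 8.15 ± 0.096 (SD, n = 3), a difference of -0.42 ± 0.088 (SE) with a 95% interval from -0.616 to -0.223 and a limma adjusted p of 0.0122. Of all genes, 3.67% had a lower difference. Without unirradiated array 2, the highest of its group, the difference was -0.35 and the adjusted p 0.0506, just past the threshold.

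DUSP4 encodes a nuclear phosphatase of ERK and JNK that is a close relative of the DUSP1 product. It read 7.49, 7.55 and 7.54 on the unirradiated arrays and 7.91, 8.16 and 7.89 on the irradiated arrays (probe set 8150076). The unirradiated values lay close together, and irradiated array 2 stood above the other two. The mean rose from 7.52 ± 0.032 to 7.99 ± 0.149 (SD, n = 3), by 0.46 ± 0.084 (SE), with a 95% interval from 0.275 to 0.648 and a limma adjusted p of 0.00607. Only 1.31% of all genes had a higher difference. The call held with each array left out in turn (adjusted p up to 0.0287) and under every other alternative tried. Within an array, the log2 value of DUSP4 minus that of DUSP1 was -1.09, -1.16 and -0.89 on the unirradiated arrays and -0.21, -0.10 and -0.18 on the irradiated arrays. That difference moved by 0.881, a 1.84-fold shift of the DUSP4 to DUSP1 ratio that shifting a whole array up or down cannot alter; the pair was chosen for its opposite changes and the shift is a description.

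The remaining nuclear phosphatase genes showed no difference that could be resolved. DUSP5, whose product is specific for ERK, read 9.71, 9.79 and 9.70 on the unirradiated arrays and 9.68, 9.66 and 9.88 on the irradiated arrays (probe set 7930413). The irradiated values lay on either side of the unirradiated ones. The difference was 0.0069 ± 0.078 (SE), with a 95% interval from -0.167 to 0.181 and a limma adjusted p of 0.963, and its sign turned under 4 alternatives. DUSP2, a phosphatase gene of activated lymphocytes, read 7.04, 6.76 and 7.12 on the unirradiated arrays and 7.07, 7.02 and 7.19 on the irradiated arrays (probe set 8053882). The groups overlapped, unirradiated array 2 being lowest. The difference was 0.12 ± 0.098 (SE), with an interval from -0.098 to 0.34 and a limma adjusted p of 0.444; without unirradiated array 2 it was 0.0145.

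DUSP6 encodes the cytoplasmic phosphatase that is specific for ERK and is widely used as a readout of ERK output. Its values were 7.81, 7.85 and 7.74 on the unirradiated arrays and 7.22, 7.75 and 7.54 on the irradiated arrays (probe set 7965335). Irradiated array 1 was far below the rest, and irradiated array 2 lay just above unirradiated array 3, so the groups overlapped. The SD went from 0.057 to 0.266 (n = 3), the widest irradiated spread among the 9 genes. The difference of -0.29 ± 0.118 (SE) did not pass (limma adjusted p 0.128), and its 95% interval ran from -0.556 to -0.03. A single array decided its size: it was -0.15 without irradiated array 1 (adjusted p 0.305) and -0.42 without irradiated array 2, where it passed (0.0317).

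DUSP10 encodes a phosphatase that prefers p38 and JNK over ERK. It read 7.26, 7.43 and 7.32 on the unirradiated arrays and 7.49, 7.67 and 7.53 on the irradiated arrays (probe set 7924450). All irradiated values were above the unirradiated ones, with a narrow gap. The difference of 0.23 ± 0.078 (SE) missed the threshold (limma adjusted p 0.0794), and passed after quantile normalization (0.0361) and with the dimmest 33.3% of genes left out (0.0473).

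Among the membrane-proximal inhibitors, the Spred genes leaned lower and the Sprouty gene higher, and none passed. SPRED1 and SPRED2 encode proteins that bring the RAS inhibitor neurofibromin to the membrane. SPRED1 read 8.73, 8.82 and 8.45 on the unirradiated arrays and 8.33, 8.39 and 8.44 on the irradiated arrays (probe set 7982564). Unirradiated array 3 sat just above the irradiated values, well under the other arrays of its group. The difference was -0.28 ± 0.097 (SE), with a limma adjusted p of 0.0829; without unirradiated array 3 it was -0.39 and passed (0.0187), and it also passed with array weights (0.0434) and with an intensity trend (0.0412). SPRED2 read 10.04, 10.05 and 9.95 against 9.80, 9.95 and 9.83 (probe set 8052689). Irradiated array 2 lay just above unirradiated array 3, so the groups overlapped slightly. Its difference was -0.15 ± 0.072 (SE), with an interval from -0.313 to 0.008 and a limma adjusted p of 0.189.

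SPRY2, encoding an inhibitor that binds the adaptor and ubiquitin ligase proteins of activated receptors, was the only 1 of the 9 in the dimmest 33.3% of genes. Its values were 3.90, 3.80 and 3.82 on the unirradiated arrays and 3.92, 4.05 and 4.07 on the irradiated arrays (probe set 7972217). They lay near the lower quartile of each array (3.89 to 3.97), and whether they exceed background is unknown. The difference of 0.17 ± 0.072 (SE) did not pass (limma adjusted p 0.142). Genes of the dimmest 33.3% as a whole had a median difference of 0.0669, and 73.1% of them were positive.

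**Figure D2:**
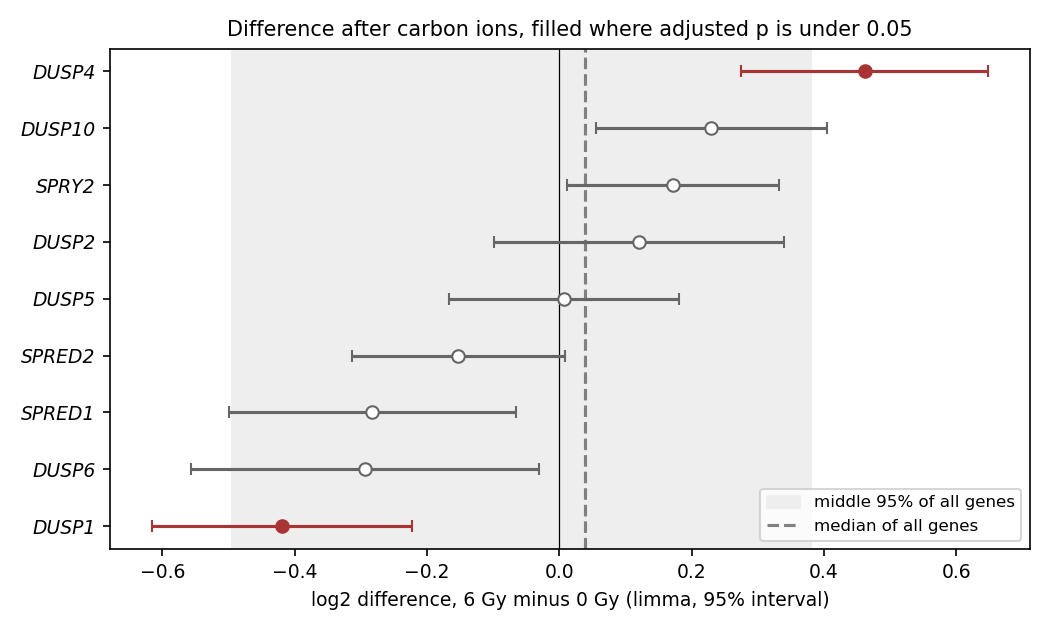
Log2 difference of each feedback gene (6 Gy minus 0 Gy) with its 95% limma interval, filled red where the adjusted p is under 0.05; the grey band holds the middle 95% of all genes and the dashed line their median. DUSP4 at 0.46 lies above the band, DUSP1 at -0.42 lies inside it near the lower edge, and the other 7 fall between -0.29 and 0.23.

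RefSeq promoter windows (GRCh38.p14) were read for 7 of the 9 genes, to show which signal-responsive motifs stand directly before their starts. No window was read for DUSP4, which rose, or for DUSP5, so DUSP1 is the only called gene among them. The 7 genes held 11 windows of 250 bases, since some genes have several starts. DUSP1, which fell, is shown beside DUSP6 and SPRY2, which did not pass. The windows are chr5:172771196-172771445 for DUSP1, chr12:89352502-89352751 for DUSP6 and chr13:80341127-80341376 for SPRY2, all on the minus strand and written 5′ to 3′. Capitals mark matches to the cyclic AMP response element (CRE) TGACGTCA, to its core TGACG on either strand, and to the ETS motif CCGGAA on either strand.
DUSP1: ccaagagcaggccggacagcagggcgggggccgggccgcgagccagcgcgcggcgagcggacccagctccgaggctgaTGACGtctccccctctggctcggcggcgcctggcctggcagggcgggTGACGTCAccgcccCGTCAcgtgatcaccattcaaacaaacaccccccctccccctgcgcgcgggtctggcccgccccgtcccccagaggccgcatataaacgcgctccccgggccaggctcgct
DUSP6: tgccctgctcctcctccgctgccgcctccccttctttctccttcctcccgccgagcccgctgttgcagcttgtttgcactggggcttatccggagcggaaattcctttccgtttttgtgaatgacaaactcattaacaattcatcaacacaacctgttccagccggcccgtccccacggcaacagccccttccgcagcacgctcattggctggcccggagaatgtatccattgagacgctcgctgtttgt
SPRY2: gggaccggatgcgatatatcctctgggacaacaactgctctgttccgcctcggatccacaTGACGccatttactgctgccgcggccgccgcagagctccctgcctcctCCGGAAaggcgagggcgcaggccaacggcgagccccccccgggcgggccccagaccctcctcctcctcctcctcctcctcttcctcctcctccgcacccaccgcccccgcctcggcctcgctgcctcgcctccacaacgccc
The DUSP1 window holds the complete CRE, its first base 125 bases before the start, and TGACG on either strand at 4 places (172, 125, 122 and 111 bases before the start), of which 2 lie within the complete element. It was the only 1 of the 11 windows with the complete CRE, which 1.65% of 35116 RefSeq windows of this length hold. SPRY2 has TGACG 190 bases and CCGGAA 142 bases before the start of the window shown; 21.2% and 14.5% of all windows hold these motifs on either strand. The AP-1 motif TGANTCA (6.57% of all windows) and the CArG box of serum response factor (1.16%) matched in 0 of the 11, and the DUSP6 window held none of the motifs searched. These matches describe letters, not bound sites.

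The remaining genes of the same families are set beside all genes, of which 14.5% were called, 6.35% higher and 8.18% lower. The lists are short, and their counts are no result about the families. Of the 4 other phosphatases with a MAPK-binding domain, DUSP7, which encodes a cytoplasmic ERK phosphatase, rose by 0.22 from 10.68, 10.72 and 10.70 to 10.91, 10.92 and 10.91, with a limma adjusted p of 0.0462. Both groups were tight, but the call ended with any 1 of the 6 arrays left out (adjusted p up to 0.136). DUSP9 (0.13), DUSP16 (-0.08) and DUSP8 (-0.03) did not pass; with 1 array left out DUSP9 ran from 0.0435 to 0.2501 and DUSP16 from -0.1401 to -0.0175. None of the other Sprouty and Spred genes passed: SPRY1 differed by 0.20, SPRY4 by 0.16, SPRY3 by 0.14 and SPRED3 by -0.0062, with limma adjusted p from 0.216 to 0.965. With 1 array left out SPRY1 ran from 0.1141 to 0.2995, and SPRY3 lies in the dimmest 33.3% of genes. Of 13 atypical phosphatases, which lack the MAPK-binding domain, 1 rose and 2 fell: STYX, a catalytically inactive relative, rose by 0.51, DUSP22 fell by 0.35 and DUSP12 fell by 0.33. The DUSP22 call ended without unirradiated array 2 (adjusted p 0.0523), and the DUSP12 call with any array but irradiated array 2 left out (up to 0.113) and after quantile normalization (0.0532).

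Other inhibitors of RAS and ERK signalling gave 2 lower and 0 higher of 15, with a median difference of -0.0283. This count stands near the 14.5% of all genes called and is no result about the list. RASA3 fell by 0.40 and RASA2 fell by 0.38; both encode proteins that speed RAS back to its inactive state. LZTR1, which promotes degradation of RAS proteins, differed by -0.28 (limma adjusted p 0.0522). RASA3 missed the threshold without unirradiated array 1 (0.0578), RASA2 without unirradiated arrays 2 and 3 (0.0579 and 0.0541), and LZTR1 passed without irradiated array 3 (0.0395), with the dimmest 33.3% of genes left out (0.0305), with array medians subtracted (0.0423), with an intensity trend (0.0466) and with array weights (0.0332).

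Upstream of the feedback loop, growth factor ligands and receptors had 5 lower and 2 higher of 31 (median 0.0549). Over all genes 8.18% fell and 6.35% rose, and no list was tested against these shares. VEGFA, the angiogenic growth factor, fell by 0.96 (limma adjusted p 4.86e-05), the growth factor receptor gene IGF1R fell by 0.39 and IL6R, a receptor for the myeloma growth factor interleukin-6, fell by 0.36. Adaptors and kinases of the RAS to ERK route had 3 lower and 1 higher of 29 (median -0.0112), and 6 further listed genes of this route were not analysed here. That count stands near the 14.5% of all genes called and is no result about the route. The kinases downstream of ERK encoded by RPS6KA2 and RPS6KA3 fell by 0.77 and by 0.35, and RASGRP3, a RAS activator gene at a dim 3.54 in unirradiated cells, rose by 0.39. The p38 and JNK kinases and their activators had 4 lower and 2 higher of 27 (median 0.00455). The JNK genes MAPK9 and MAPK8 fell by 0.50 and by 0.45, and RPS6KA4, a nuclear kinase activated by p38 and ERK, rose by 0.40. Calls for RPS6KA3 ended without unirradiated arrays 1 and 2 and irradiated arrays 1 and 3 (up to 0.0942), and for RASGRP3 without unirradiated arrays 1 and 2 and irradiated arrays 2 and 3 (up to 0.107).

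Downstream of the kinases, most early and delayed transcripts of the pathway did not pass. Both lists were called in larger shares than all genes (14.5%). So were the other MAPK phosphatases, the atypical phosphatases, the ligands and receptors, and the p38 and JNK list. The remaining pathway lists had smaller shares. The 14.5% is a low yardstick, since it includes the dimmest 33.33% of genes, of which 3.63% were called. Most of the early and delayed transcripts are brighter than those genes. All lists were chosen with earlier results known. Over all genes 6.35% rose and 8.18% fell, and the lists were not tested against these shares. Of 25 immediate early genes, 7 fell and 0 rose, with a median of 0.00826: EGR1 fell by 1.90, the nuclear receptor gene NR4A2 fell by 0.96 and the stress factor gene ATF3 fell by 0.71. EGR1, a zinc-finger factor induced through ERK, read 9.50, 10.17 and 9.91 on the unirradiated arrays and 7.74, 8.33 and 7.82 on the irradiated arrays, with no overlap. Of 15 delayed transcripts used as readouts of ERK output, 3 rose and 1 fell, with a median of 0.141; FOSL1, IER3, SPRY1 and SPRY4 each stand in more than one of these lists. PHLDA1, a pleckstrin homology domain gene, rose by 0.98, from 7.35, 7.41 and 7.28 to 8.18, 8.45 and 8.34. PLAUR, the urokinase receptor gene, rose by 0.60, and ETV1, an ETS factor gene at a dim 4.17 in unirradiated cells, fell by 0.29. The ETV1 call ended with any array but unirradiated array 3 left out (limma adjusted p up to 0.0977). The difference between the early and the delayed list was not tested.

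**Figure D3:**
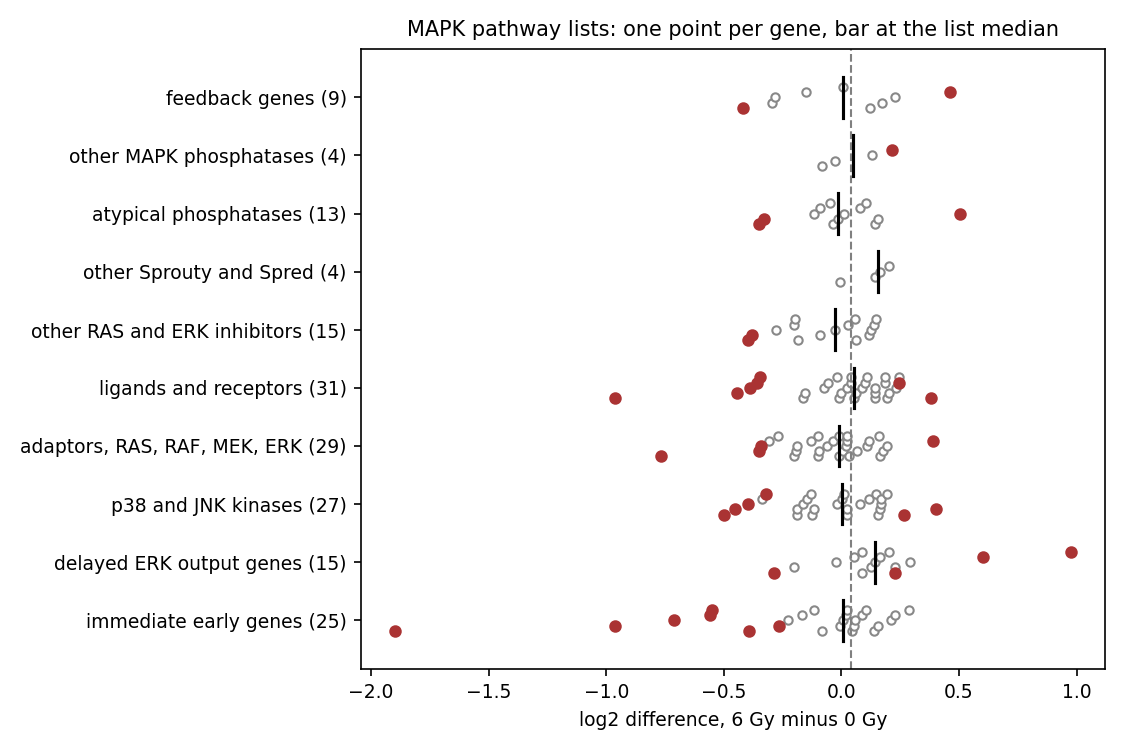
Log2 difference (6 Gy minus 0 Gy) of every measured gene in the feedback set and 9 MAPK pathway lists, with the number of genes in brackets, filled red where the adjusted p is under 0.05. Black bars are list medians and the dashed line is the median of all genes at 0.0389. Called genes lie on both sides in 5 of the 9 lists. They lie only lower among the immediate early genes (7) and the other RAS and ERK inhibitors (2), and only higher among the other MAPK phosphatases (1). Over all genes 8.18% fell and 6.35% rose.

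The genes whose 6 values most resembled those of DUSP4 and DUSP1 were sought among all genes, by the root mean square difference after each gene was centred on its mean of 6 arrays. Nearest to DUSP4 were STYXL1, which encodes a catalytically inactive relative of the dual-specificity phosphatases (0.025 log2 units), the pseudogene CATSPER2P1 (0.026) and the calcium channel gene ORAI1 (0.033). STYXL1 differed by 0.45, from 7.67 ± 0.052 to 8.13 ± 0.132 (SD, n = 3). Nearest to DUSP1 were DIP2A (0.031), the DNA primase gene PRIM1 (0.033) and TRAF5, a signalling adaptor gene of tumour necrosis factor receptors (0.033), all with differences between -0.46 and -0.41. Likeness over 6 arrays in 2 groups mostly reflects a difference of like size.

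**Figure D4:**
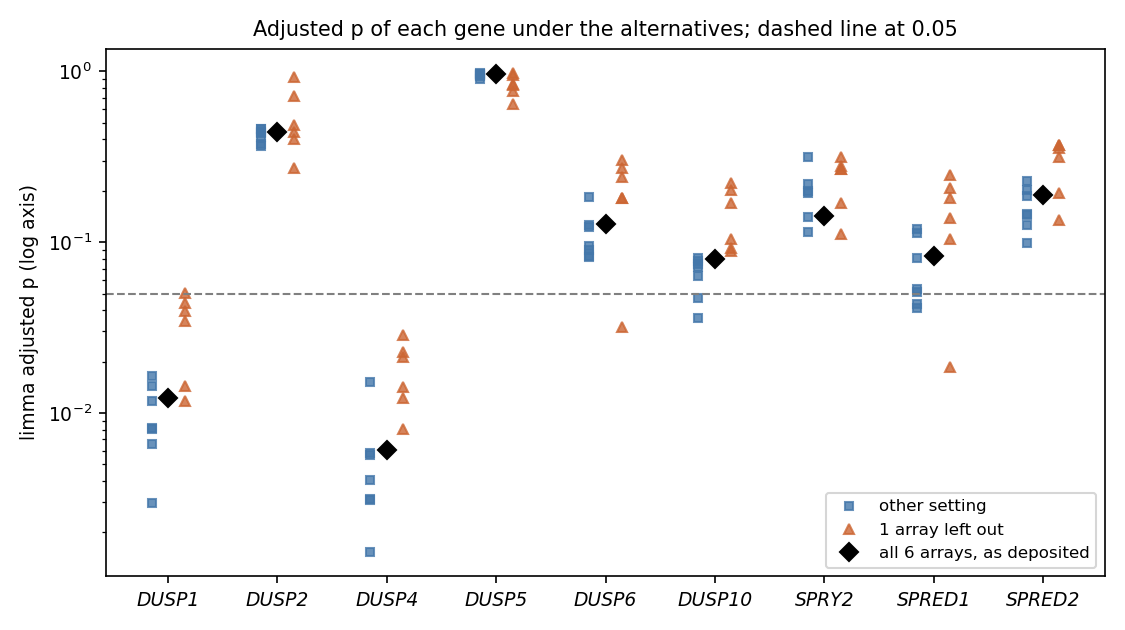
Limma adjusted p (log axis) of each feedback gene with all 6 arrays as deposited (black diamonds), with 1 array left out (orange triangles) and under the other settings (blue squares); the dashed line marks 0.05. DUSP4 stays below the line throughout, DUSP1 crosses it once at 0.0506, and DUSP6, DUSP10 and SPRED1 cross it under some settings.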

How the data were processed

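The deposited table holds 33297 probe set values per array for 6 arrays, taken as the authors' log2 intensities. The log base is inferred from their range, about 2 to 14, and folds rest on it. The sources used here do not give the background correction, normalization or software. Total RNA was extracted with Trizol, per the labels' protocols. Array medians were 5.64 to 5.67 at 0 Gy and 5.66 to 5.72 at 6 Gy, and the number of arrays limits the precision.

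Probe sets with 1 gene symbol in the platform annotation (19460; 1754 had several and 12083 none) were kept, the brightest on average per gene, which gave 18417 genes. Groups were compared with limma 3.58.1 (lmFit, eBayes; R 4.3.3), two-sided, with no covariate or filter, and Benjamini-Hochberg adjustment over all genes; 4 residual and 5.85 prior degrees of freedom. Tables used pandas 2.3.3 and numpy 2.4.6, and plots matplotlib 3.10.9, in Python 3.11.15. The fit was tested on simulated data.

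The members and gene lists were chosen with earlier results of these data known. Named were all 9 members, the 3 genes with the smallest p of each pathway list, every measured gene of the other MAPK phosphatases and of the other Sprouty and Spred genes, and the 3 genes most like the members with the largest rise and fall. Marker genes are named as well. Alternatives were the sample number as a block, each array left out, the dimmest 33.3% of genes left out, quantile normalization, array medians subtracted, array weights, a robust prior with an intensity trend, averaging of a gene's probe sets and an adjusted p under 0.01. List genes without a probe set of their own single symbol were not analysed here.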

Additional observations from a re-analysis of the deposited data

How the results depend on the processing

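Of the 125 values of the 9 feedback genes under alternatives, 113 kept direction and side of the threshold. Part of this count was fixed in advance and is no measure of robustness. The differences could not change under the replicate block, the dimmest 33.3% left out, the intensity trend or the stricter threshold. Averaging probe sets could not change them either, as each of the 9 genes had 1 probe set. Genes far from the threshold add to the count as well. The number that rose was 2 instead of 1 with the dimmest 33.3% left out and after quantile normalization, where DUSP10 joined DUSP4. The number that fell was 2 with an intensity trend and with array weights, where SPRED1 joined DUSP1, 0 at an adjusted p under 0.01, and 0 to 2 with 1 array left out; the number that rose was then 1 each time. Changed genes numbered 1471 to 2184 with 1 array left out and 1077 at an adjusted p under 0.01. The sign turned for DUSP5 with array weights (-0.0171) and for DUSP8 after quantile normalization (0.0055). With 1 array left out, DUSP5 ran from -0.0608 to 0.046, DUSP8 from -0.0763 to 0.0117 and SPRED3 from -0.0505 to 0.0307. The causes were not tested. The sample number did not pair the arrays (correlations of same-numbered deviations -0.042, 0.103 and -0.111, with 1 of 3 unirradiated arrays nearest its own number); as a replicate block it gave 1919 changed genes, kept DUSP1 and DUSP4, each with 1 call, and ended the call of DUSP7 (adjusted p 0.0959). SPRY2 and other dim genes have no detection call.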
